A study of Mus musculus with 12 samples.

Results

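The genes described here encode β-catenin (*Ctnnb1*), its close relative plakoglobin (*Jup*), the proteins of the complex that marks β-catenin for destruction (*Apc*, *Apc2*, *Axin1*, *Gsk3a*, *Gsk3b*, *Csnk1a1* and *Btrc*) and the cadherin that holds β-catenin at the epithelial cell membrane (*Cdh1*, E-cadherin). They were chosen by name, for their role in the pathway that the study switched on, and are 10 of the 27754 genes in the expression table. All 10 passed the filter on low values that left 18400 genes for testing.

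RNA was sequenced from the cochlear sensory epithelium of neonatal mice on a mixed C57BL/6 and CD1 background. Every pup carried 1 β-catenin-flox(Exon3) allele and received tamoxifen through the milk of its mother, which was injected with 100 µl at 50 µg/µl on day 1 or day 4 after delivery, and every pup was harvested 72 h later, on day 4 or day 7. Treated pups also carried Sox2-CreER, so that exon 3 was cut out of the floxed allele in cells that express *Sox2*, and untreated pups had no Cre. The groups were P1 treated (n = 3), P1 untreated (n = 3), P4 treated (n = 2) and P4 untreated (n = 3), named by the day of tamoxifen, and a library came from both ears of 1 pup. P1 and P4 therefore differ in the day of tamoxifen and in the age at harvest together, and these cannot be told apart. Pups of a litter share the injected mother, so litter cannot be told apart from them either. The other P4 treated sample (replicate 2) is not analysed here. Sox2-CreER is a knock-in that replaces *Sox2* coding sequence, so treated pups also have 1 working copy fewer of *Sox2*. Since only SOX2+ cells recombine, each treated library mixes cells with and without the deletion. In such bulk libraries, fewer cells of a type and less RNA per cell cannot be told apart.

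β-catenin has a double life. At the membrane it links cadherins to α-catenin and the actin cytoskeleton, and in the nucleus it works with TCF and LEF factors to switch on Wnt target genes. In the absence of a Wnt signal the scaffolds APC and AXIN hold cytoplasmic β-catenin next to casein kinase 1α and GSK3, the kinases phosphorylate serines and a threonine near its amino end, and the F-box protein β-TrCP (*Btrc*) then has it ubiquitylated and degraded. Exon 3 of *Ctnnb1* encodes those phosphorylated residues, so that the protein made without it escapes this route. In the cochlea Wnt signaling is known for its part in the proliferation of supporting cells, whose capacity for division declines after birth.

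The deleted exon is shown because every treated comparison turns on it. *Ctnnb1* exon 3 lies at chr9:120950522-120950749 on the plus strand (GRCm38, the assembly also called mm10), is coding throughout, and is 228 bases or 76 codons long, which is 9.73% of the coding length and leaves the reading frame intact when it is removed. Capitals mark the codons of the phosphorylated residues 33, 37, 41 and 45.
Ctnnb1 exon 3: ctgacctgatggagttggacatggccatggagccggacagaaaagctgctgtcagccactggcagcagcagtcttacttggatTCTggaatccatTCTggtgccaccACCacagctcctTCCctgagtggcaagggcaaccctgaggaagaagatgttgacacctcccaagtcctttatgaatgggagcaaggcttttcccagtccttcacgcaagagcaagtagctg

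Plakoglobin carries the same kind of motif but is encoded by a gene that was not floxed. The pair of coding stretches around the motif are set side by side to show this, at chr9:120950596-120950649 (plus strand) for *Ctnnb1* and chr11:100386267-100386320 (minus strand) for *Jup*, both on GRCm38 and both written 5′ to 3′ in the direction of the gene. Capitals mark the 4 corresponding serine and threonine codons, those of residues 24, 28, 32 and 36 in *Jup*.
Ctnnb1 phosphorylation motif: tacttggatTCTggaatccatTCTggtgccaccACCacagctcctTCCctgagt
Jup phosphorylation motif: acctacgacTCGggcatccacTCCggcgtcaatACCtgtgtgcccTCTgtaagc
Of the 54 aligned bases 31 were identical, and 11 of the 18 codons encoded the same residue although 2 codons were spelled alike.

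Values are the deposited normalized counts, which are scaled between libraries but not for gene length. They summed to between 41225626 and 44153992 per library. *Sox2* was lower in every treated library than in every untreated library of its age, at 4930 to 6006 against 8042 to 10170 normalized counts at P1 and 7577 to 7993 against 10101 to 10485 at P4 (log2 fold change, treated minus untreated and averaged over both ages, -0.54 ± 0.076 SE, limma adjusted p = 0.0137). A gene-level count does not separate *Ctnnb1* transcripts with and without exon 3, so the *Ctnnb1* values do not check the excision. The paper looked at exon 3 in the transcripts separately and excluded a sample in which Cre activation was insufficient. Markers of supporting cells, hair cells and epithelium were present in every library, and no gene of those lists was at 0 throughout. Markers of mesenchyme, which the separation step in Cell Recovery Solution is meant to remove, were also present, with the 15 genes of that list summing to 151938 to 231462 normalized counts per library. Such a sum follows the most abundant genes, and the mean log2 level of the 15 genes was less even, at 10.1 to 12.2. *Xist*, which marks female tissue, was at 2794 to 4180 normalized counts in 2 of 3 P1 untreated and both P4 treated libraries and at 13 to 39 in all others. Sex therefore cannot be told apart from treatment at P4 or from age among treated samples. In the treatment comparison at P1 and the age comparison of untreated samples the sexes were not balanced.

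A gene is called changed if its log2 fold change lay beyond 0.32 in either direction and its limma adjusted p was under 0.05. Where groups are said not to overlap, the share of all genes without overlap was not counted. Such separation can come with a difference near 0, as for *Csnk1a1* in P4 treated against P4 untreated samples (log2 difference 0.04). Treatment called none of the 10 genes, against 0.353% of all genes tested at P1 (65 genes), 0.0543% at P4 (10 genes) and 0.674% in the average of both ages (124 genes). At an unadjusted p under 0.05, *Apc* was higher in P1 treated samples, *Cdh1* was higher in P4 treated samples, and both were higher in the averaged comparison. Many other genes passed that limit too. Ranked by p among the genes tested, *Apc* was number 1211 at P1 and 991 in the average. *Cdh1* was number 1529 at P4 and 2419 in the average. Age called 3 of the 10 lower at P1 than at P4 in the average of treated and untreated samples, *Apc*, *Jup* and *Btrc*, where 25.1% of all genes were called in either direction and 11.9% were lower. The median log2 fold change of the 10 genes, P1 minus P4, was -0.28, beside 0.01 over all genes tested. No gene of the 10 was called for a difference between the treatment effects at P1 and P4, nor was any of the 18400 genes tested (0%). At an unadjusted p under 0.05 that count for the 10 genes was also 0.

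**Figure D1:**
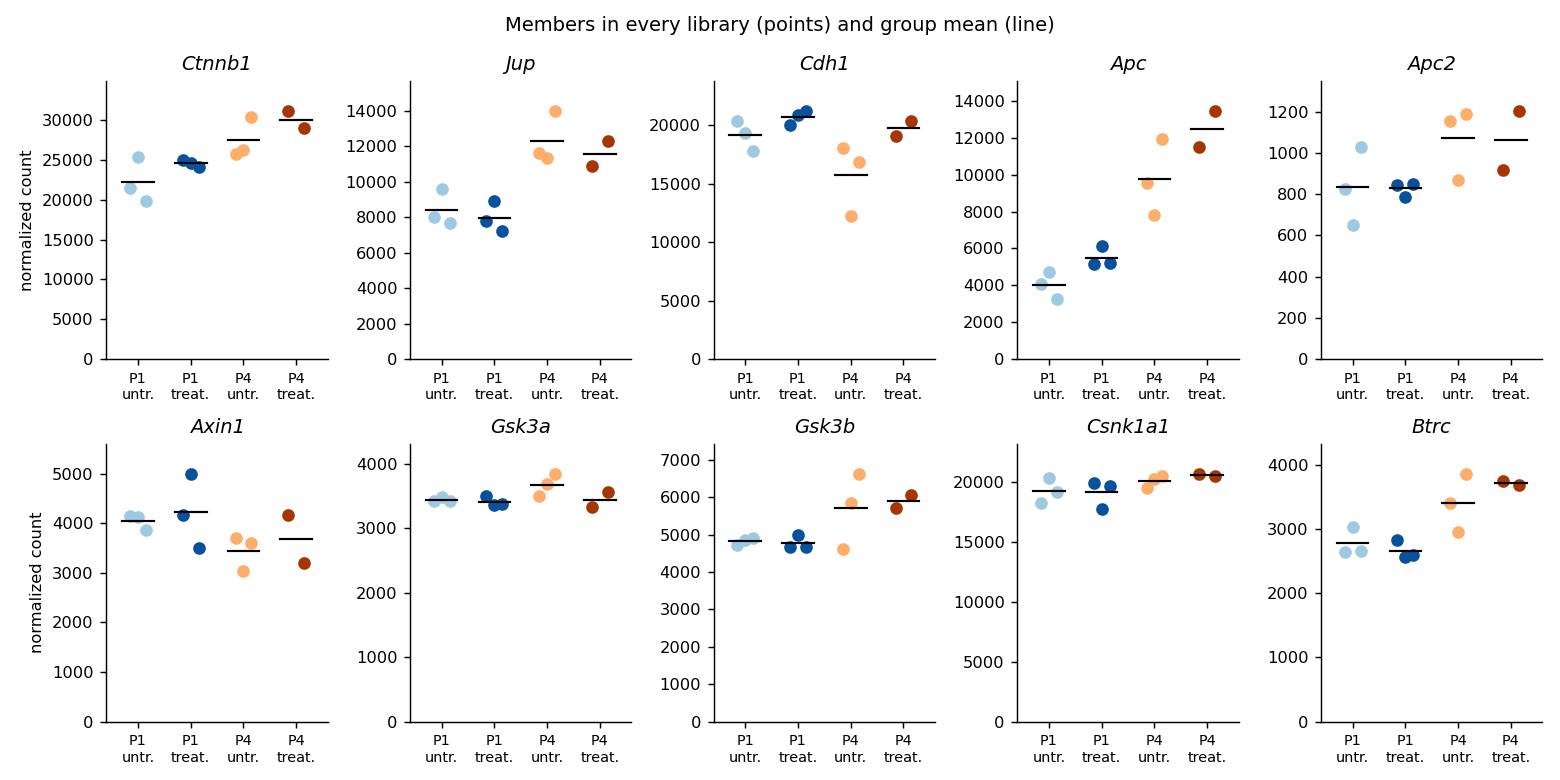
Normalized counts of the 10 genes in each library (points) with the mean of each group (line), for P1 untreated, P1 treated, P4 untreated and P4 treated samples; every axis starts at 0. *Apc* and *Jup* are lower in all P1 libraries than in all P4 libraries, while *Gsk3a* and *Csnk1a1* lie close to level, with the highest library 1.15 and 1.17 times the lowest.

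*Ctnnb1* (chr9:120929216-120960507, plus strand) was among the most abundant of the 10. It was measured at 25048, 24630 and 24107 normalized counts in P1 treated and 21419, 25308 and 19820 in P1 untreated samples. In the P4 samples it was at 31167 and 28951 when treated and 25724, 26307 and 30429 when untreated. The treated and untreated libraries overlapped at each age, whereas every P4 library exceeded every P1 library. The averaged treatment difference was 0.14 on the log2 scale (95% interval -0.02 to 0.31). The age difference was -0.30 ± 0.073 SE (P1 minus P4), with a limma adjusted p of 0.0107, but its size stayed under 0.32 and it was not called. It passed both thresholds when P1 untreated replicate 2 (-0.35), P4 treated replicate 3 (-0.33) or P4 untreated replicate 1 (-0.32) was left out.

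*Jup* (chr11:100368958-100397763, minus strand), which takes the place of β-catenin in cadherin complexes and also joins desmosomes, was at 7776, 8929 and 7213 normalized counts in P1 treated and 8036, 9577 and 7656 in P1 untreated samples. At P4 the values were 10857 and 12295 in treated and 11617, 11349 and 13995 in untreated samples. Every P4 library was above every P1 library. The age difference was -0.54 ± 0.0887 SE on the log2 scale (limma adjusted p = 0.00135), and it was -0.55 among untreated and -0.54 among treated samples taken alone. Treatment moved *Jup* by -0.08 (95% interval -0.28 to 0.11), and treated and untreated libraries overlapped at both ages.

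The ratio of *Jup* to *Ctnnb1* within a library does not depend on how the libraries were scaled. Its log2 value was -1.69, -1.46 and -1.74 in P1 treated and -1.41, -1.40 and -1.37 in P1 untreated samples. At P4 it was -1.52 and -1.24 in treated and -1.15, -1.21 and -1.12 in untreated samples. All treated libraries lay below all untreated libraries of the same age. The ratio was lower by treatment, with a log2 difference of -0.23 (-0.23 at P1 and -0.22 at P4; exact two-sided permutation test of 11 libraries within age, p = 0.005, the smallest that its 200 permutations allow, adjusted p = 0.015 over 12 such tests). The margin was narrow in places, since P1 treated replicate 2 and P4 treated replicate 3 lay just under the untreated range, and without P4 treated replicate 1 the difference was -0.16 with an adjusted p of 0.06. For this ratio, too, sex cannot be told apart from treatment at P4, and the sexes were not balanced at P1. The ratios were not tested with *Xist* as a covariate. The ratio was also lower at P1 than at P4 (log2 difference -0.24, exact permutation p = 0.015, adjusted p = 0.03), although leaving out a library raised that adjusted p past 0.05 for 7 of the 11 libraries, to between 0.0514 and 0.0857. With a library left out fewer permutations remain, so the smallest p that can be reached is higher, for treatment as for age. Its part in these rises was not tested.

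**Figure D2:**
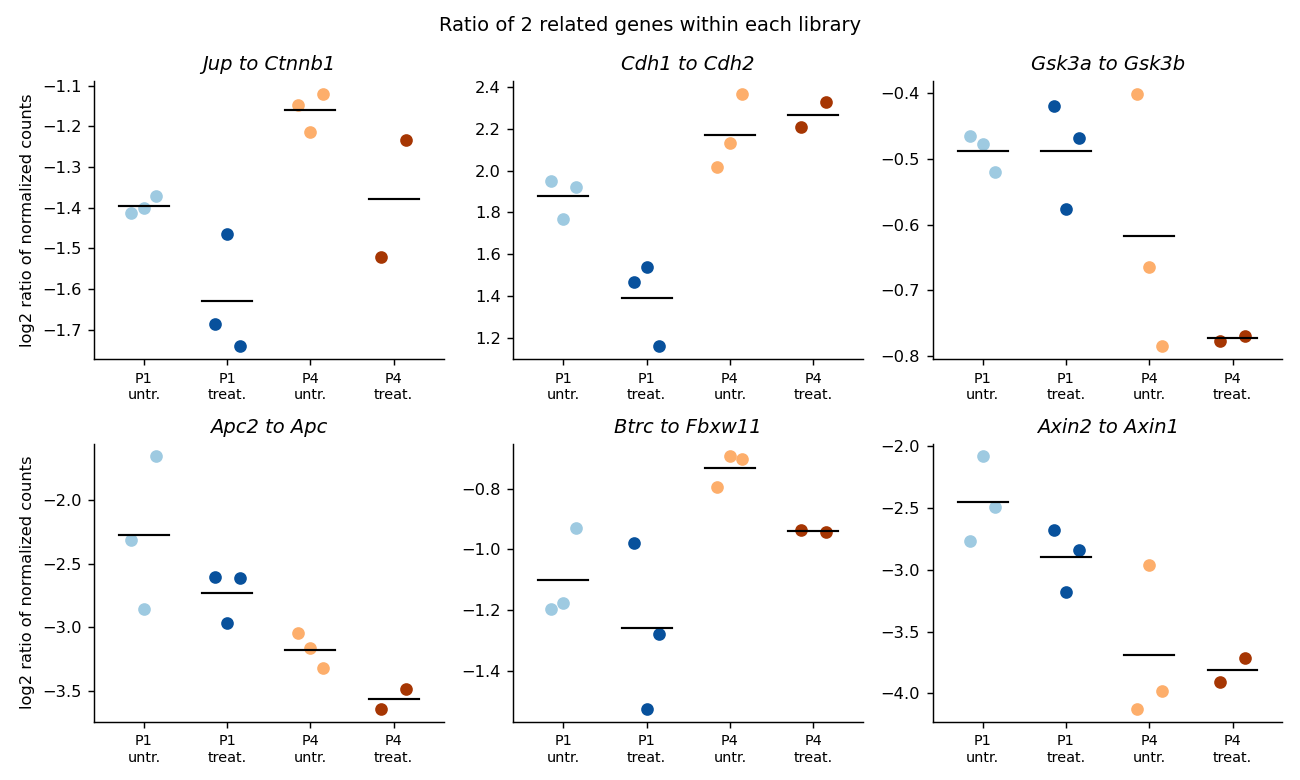
Log2 ratio of the normalized counts of 2 related genes within each library (points) and the group mean (line), for 6 pairs of genes. In the *Jup* to *Ctnnb1* panel the treated libraries, at -1.74 to -1.46 at P1 and -1.52 to -1.24 at P4, sit below the untreated ones of the same age, at -1.41 to -1.37 and -1.21 to -1.12.

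Among the scaffolds, *Apc* (chr18:34220924-34322552, plus strand), the large scaffold that is lost in many colorectal tumours, varied most of the 10 genes, with its highest library 4.16 times its lowest. It was at 5157, 6161 and 5212 normalized counts in P1 treated and 4098, 4721 and 3240 in P1 untreated samples. At P4 it was at 11491 and 13472 in treated and 9540, 7794 and 11930 in untreated samples. The P1 and P4 libraries did not overlap, and the log2 difference was -1.23 ± 0.127 SE (limma adjusted p = 1.18e-04), with -1.27 among untreated and -1.18 among treated samples. All P1 treated libraries were above all P1 untreated ones, while the P4 groups overlapped. The averaged treatment difference of 0.42 (95% interval 0.14 to 0.70) had an unadjusted limma p of 0.00771 and an adjusted p of 0.143, and was not called.

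*Apc* has a transcript of 12.81 kb, and long transcripts as a class leaned the same way. Over the 849 genes with a transcript of at least 8 kb the median log2 difference between P1 and P4 was -0.13, with quartiles of -0.35 and 0.18, beside a median of 0.05 for 5959 genes under 2 kb. For treatment the same medians were 0.10 and -0.06. The part of transcript length in the *Apc* values was not tested.

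*Apc2* (chr10:80295977-80318263, plus strand), the relative of *Apc* best known from neurons, was the least abundant of the 10. It was at 847, 788 and 850 normalized counts in P1 treated, 824, 651 and 1029 in P1 untreated, 918 and 1205 in P4 treated and 1155, 869 and 1191 in P4 untreated samples. Its untreated libraries overlapped between the ages and its treated libraries did not, and its age difference of -0.36 (95% interval -0.66 to -0.05) was not called. It was called without P1 untreated replicate 3 (-0.44) or P4 untreated replicate 2 (-0.43). The *Apc2* to *Apc* ratio was higher at P1 than at P4 by 0.87 on the log2 scale (exact permutation p = 0.005, adjusted p = 0.015), and its treatment difference of -0.42 had an adjusted p of 0.0675 in the same exact test. *Apc2* shares exon sequence with a gene on the opposite strand, 2310011J03Rik, and the SMARTer kit used does not mark strand, so reads from the pair cannot be told apart.

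*Axin1* (chr17:26138688-26195811, plus strand), the scaffold around which the complex assembles, was at 4165, 5001 and 3498 normalized counts in P1 treated, 4145, 4115 and 3867 in P1 untreated, 4173 and 3190 in P4 treated and 3703, 3041 and 3600 in P4 untreated samples. It was not called for age (0.21, 95% interval -0.02 to 0.45) or treatment (0.07, -0.17 to 0.30). *Axin2*, its relative and a widely used target of Wnt signaling, was higher at P1 by 1.29 ± 0.188 SE (limma adjusted p = 7.18e-04), with no overlap between P1 and P4 libraries, and was not called for treatment (-0.22, 95% interval -0.63 to 0.20). The *Axin2* to *Axin1* ratio was accordingly higher at P1, by 1.08 on the log2 scale (exact permutation p = 0.005, adjusted p = 0.015).

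Of the kinases, *Gsk3a* and *Csnk1a1* varied least of the 10 genes across libraries. *Gsk3a* (chr7:25228258-25237851, minus strand) was at 3496, 3355 and 3377 normalized counts in P1 treated, 3426, 3487 and 3427 in P1 untreated, 3335 and 3556 in P4 treated and 3503, 3680 and 3850 in P4 untreated samples. Its age difference was -0.05 (95% interval -0.16 to 0.05) and its treatment difference -0.05 (-0.16 to 0.05), so that both intervals stayed within 0.32 of no change. *Gsk3a* shares exon sequence with the opposite-strand gene 9130221H12Rik, with the same limit as for *Apc2*.

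*Gsk3b* (chr16:38089001-38246084, plus strand) was at 4676, 5002 and 4674 normalized counts in P1 treated, 4734, 4854 and 4915 in P1 untreated, 5715 and 6060 in P4 treated and 4627, 5837 and 6634 in P4 untreated samples. The P4 untreated libraries spanned the whole range of the gene, from its lowest to its highest value. The age difference of -0.26 (limma adjusted p = 0.0375) was too small to be called, and it passed 0.32 without P4 untreated replicate 1 (-0.33). The *Gsk3a* to *Gsk3b* ratio differed by 0.21 between the ages with an adjusted p of 0.06 (exact permutation test), and by 0.26 with an adjusted p of 0.0343 without that library.

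*Csnk1a1* (chr18:61555274-61590061, plus strand), the casein kinase that places the first phosphate on β-catenin, was at 19972, 17777 and 19709 normalized counts in P1 treated and 18285, 20361 and 19192 in P1 untreated samples. At P4 it was at 20724 and 20555 in treated and 19492, 20299 and 20536 in untreated samples. Neither its age difference (-0.09, 95% interval -0.20 to 0.03) nor its treatment difference (0.01, -0.10 to 0.13) was called, and both intervals stayed within 0.32 of no change.

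*Btrc* (chr19:45363734-45530013, plus strand), the F-box protein that recognises phosphorylated β-catenin, was at 2826, 2569 and 2601 normalized counts in P1 treated and 2637, 3032 and 2661 in P1 untreated samples. At P4 it was at 3744 and 3684 in treated and 3400, 2952 and 3864 in untreated samples. One P4 untreated library, replicate 2, fell inside the P1 range, and the treated groups did not overlap between the ages. The averaged age difference was -0.38 ± 0.0768 SE (limma adjusted p = 0.0041). It was -0.48 among treated samples (adjusted p = 0.0254 without and 0.0701 with the replicate number as a block) and -0.29 among untreated samples, where it was not called. Without P4 untreated replicate 2 the untreated difference was -0.39 with a limma adjusted p of 0.0227.

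*Fbxw11*, the other β-TrCP gene, did not follow *Btrc*, with an age difference of -0.04 (95% interval -0.27 to 0.20). The *Btrc* to *Fbxw11* ratio was lower at P1 than at P4, with a log2 difference of -0.35 (exact permutation p = 0.015, adjusted p = 0.03). Leaving out P4 treated replicate 1 or replicate 3 raised the adjusted p to 0.075 and 0.0857, again with fewer permutations and a higher smallest p.

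*Cdh1* (chr8:106603351-106670246, plus strand) was at 20016, 20932 and 21251 normalized counts in P1 treated and 20346, 19358 and 17814 in P1 untreated samples. At P4 it was at 19129 and 20409 in treated and 18077, 12282 and 16897 in untreated samples. P4 untreated replicate 2 stood well below all other libraries. In it the 15 epithelial markers summed to 137676 normalized counts and had a mean log2 level of 12.11, both within the range of the other libraries. The part of epithelial content in this low *Cdh1* value was not tested. Both P4 treated libraries were above all P4 untreated ones (log2 difference 0.35, 95% interval 0.04 to 0.66, not called), and the averaged treatment difference of 0.23 (95% interval 0.02 to 0.44) had an unadjusted limma p of 0.0333 and an adjusted p of 0.253. Without P4 untreated replicate 2 these differences were 0.18 and 0.15. At P4 sex cannot be told apart from treatment. The age difference of 0.19 (95% interval -0.02 to 0.39) was not called.

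N-cadherin (*Cdh2*) was higher at P1 than at P4 by 0.77 ± 0.124 SE on the log2 scale (limma adjusted p = 0.00124), and the *Cdh1* to *Cdh2* ratio was lower at P1 with a difference of -0.59 (exact permutation p = 0.005, adjusted p = 0.015). At P1 the log2 ratio was 1.47, 1.54 and 1.16 in treated and 1.95, 1.77 and 1.92 in untreated samples, without overlap. At P4 it was 2.21 and 2.33 in treated and 2.02, 2.13 and 2.37 in untreated samples, which overlapped. The averaged treatment difference of -0.20 had an adjusted p of 0.216 in the exact test, and whether the ages differ in it was not tested. *Cdh2* is also made by mesenchyme, whose 15 markers had a mean log2 level of 10.3 to 12.1 in P1 treated, 12.1 to 12.2 in P1 untreated, 10.1 to 10.8 in P4 treated and 11.05 to 11.5 in P4 untreated libraries. Their part in the *Cdh2* values was not tested.

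**Figure D3:**
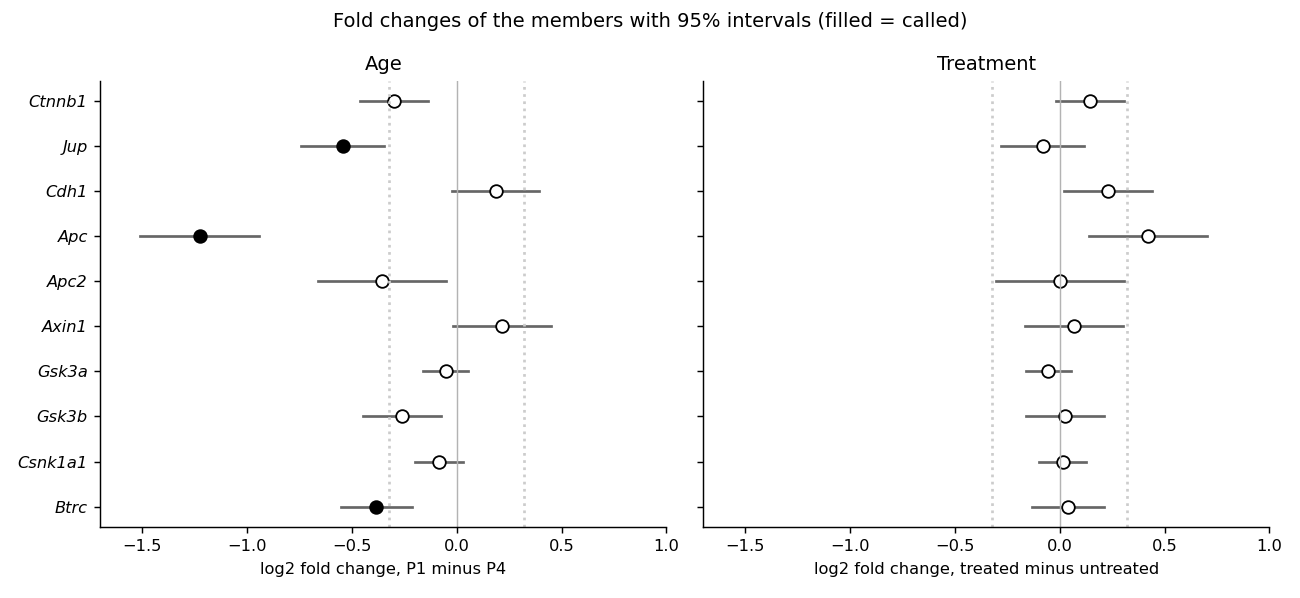
Log2 fold change of each of the 10 genes with its 95% interval (line) for P1 minus P4, averaged over treated and untreated samples (left), and for treated minus untreated, averaged over both ages (right); dotted lines mark the limit of 0.32 for a call and filled points mark called genes. Only the age panel has filled points, *Jup* (-0.54), *Apc* (-1.23) and *Btrc* (-0.38).

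Where treated and untreated samples were compared across age separately, the called members were *Apc* and *Jup* in untreated samples (2 of 10, where 19.9% of genes were called and 9.38% were lower at P1) and *Apc*, *Jup* and *Btrc* in treated samples (3 of 10, where 11.1% were called and 5.42% were lower). The treated comparison rests on 2 P4 libraries. Without P4 treated replicate 3 none of the 3 was called, without P4 treated replicate 1 or P1 treated replicate 3 *Apc* alone was, and without P1 treated replicate 1 *Jup* was not. With *Xist* as a covariate none was called either, and 28 of all genes tested were called in that comparison in place of 2034. *Xist* separates these groups completely, at 13 to 26 normalized counts in P1 treated and 3268 to 4180 in P4 treated libraries. A loss of calls with this covariate therefore cannot decide between sex and age. In the averaged comparison *Apc*, *Jup* and *Btrc* were called under each of these settings.

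Cell type markers moved with age too. Of 16 supporting cell markers 8 were lower at P1 and 1 was higher, and their sum ran from 118395 to 171967 normalized counts in P1 and from 182821 to 211880 in P4 libraries. Of 12 markers of dividing cells 11 were higher at P1, with sums of 4487 to 11354 in P1 treated, 4634 to 4799 in P1 untreated and 2363 to 2961 in P4 libraries. Of 15 mesenchyme markers 6 were higher and 1 was lower at P1, with a median log2 difference of 0.91, and of 16 hair cell markers 2 were higher and 5 were lower, with a median of -0.26. Of 15 epithelial markers 3 were higher and 1 was lower, where 25.1% of all genes were called. The part of cell composition in the lower *Apc*, *Jup* and *Btrc* values at P1 was not tested.

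Per kilobase of transcript, which allows levels of different genes to be compared, *Csnk1a1* and *Ctnnb1* stood at the top and *Apc2* at the bottom. In P1 untreated samples the level was 8300 ± 448 normalized counts per kb (SD, n = 3) for *Csnk1a1*, 6122 ± 779 for *Ctnnb1* and 4327 ± 288 for *Cdh1*. *Jup* followed at 2628 ± 317 and *Gsk3a* at 1525 ± 15.5. *Axin1* at 1070 ± 40.4 and *Btrc* at 932.5 ± 74.4 were close neighbours, and their order was turned in P4 untreated samples, at 913 ± 94.3 for *Axin1* and 1143 ± 153 for *Btrc*. *Gsk3b* at 582 ± 11.1 exceeded *Apc* at 314 ± 58.0 in P1 untreated samples, whereas in P4 untreated samples the 2 lay within their spread, at 686 ± 122 and 762 ± 162. *Apc2* was at 91.0 ± 20.6. These levels rest on 1 annotated transcript per gene, and *Gsk3b* in particular is listed with shorter ones than the 8.30 kb used.

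The rest of the destruction machinery was mixed. Of 23 tested genes that act in the complex or in the turnover of its parts, 3 were lower at P1 than at P4, 2 were higher and 18 were not called, with a median log2 difference of -0.06 against 0.01 over all genes. Over all genes 25.1% were called and 11.9% were lower, and the same shares stand behind the lists that follow. *Csnk1e*, another casein kinase, was lower by a difference of -0.36, *Tnks2*, a tankyrase that marks AXIN for degradation, by -0.55, and *Usp9x*, a deubiquitinase, by -0.53. *Axin2* and *Siah2*, a ubiquitin ligase (0.36), were higher. Treatment called none of the 23.

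Of 8 genes of the SCF ubiquitin ligase, which *Btrc* equips with its substrate, *Skp1a* was the 1 gene called in the average of treated and untreated samples. This adaptor between the F-box protein and the cullin was lower at P1 by a log2 difference of -1.08 ± 0.104 SE (limma adjusted p = 8.06e-05), without overlap between the ages. In the untreated samples alone *Cul1*, the cullin of the ligase, was also called lower at P1 (-0.34). Of 12 genes that bind Dishevelled or GSK3, *Dact1* (1.199) and *Dixdc1* (0.55) were higher at P1 and *Frat2*, which encodes a GSK3-binding protein, was lower (-0.52). Of 15 tested nuclear partners of β-catenin and antagonists listed with them, *Apcdd1*, an inhibitor of Wnt receptors, was higher at P1 (1.36), and 14 were not called. None of these 3 lists held a gene called for treatment.

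The other classical cadherins leaned towards P1, with a median log2 difference of 0.62 over 15 tested genes, beside 0.19 for *Cdh1*. *Cdh2*, *Cdh3* (0.95), *Cdh4* (1.39), *Cdh11* (1.18) and *Cdh15* were higher, *Cdh22* was lower and 9 were not called. *Cdh4*, R-cadherin, had means of 22640 ± 4567 (SD, n = 3) and 19320 ± 623 (n = 3) normalized counts in P1 treated and untreated samples and 9948 ± 293 (n = 2) and 6641 ± 2712 (n = 3) in P4 treated and untreated samples.

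Of 18 catenin and adherens junction genes, 5 were lower at P1, 2 were higher and 11 were not called, with a median of -0.004, where 25.1% of all genes were called and 11.9% were lower. *Vcl*, the actin linker vinculin, was lower by a log2 difference of -0.81, the nectin *Nectin2* by -0.82 and the actin-binding protein *Lima1* by -0.66. *Arvcf*, a catenin of the p120 family, was higher (1.05), while *Ctnnd1*, which encodes p120-catenin itself, was lower (-0.71). *Ctnna1*, the α-catenin that links β-catenin to actin, was not called for age (-0.19, limma adjusted p = 0.0514) or treatment (-0.01, 95% interval -0.16 to 0.14). Treatment called none of the 18, although 16 had positive differences, with a median of 0.16 against 0.003 over all genes. Markers of other cells went the opposite way in treated samples, with a median of -0.91 over 15 mesenchyme markers (10 lower at an unadjusted p under 0.05) and -0.67 over 13 immune cell markers (9 lower), of which none was called lower and 1 mesenchyme marker was called higher, and their part in the junction genes was not tested. Of 10 tested desmosome genes, partners of plakoglobin, *Dsg3*, a desmoglein, was the 1 gene called in the averaged age comparison (-1.54), and the P1 treated libraries carried this value. It was at 3 to 4 normalized counts in P1 treated, 15 to 34 in P1 untreated, 22 to 30 in P4 treated and 21 to 47 in P4 untreated libraries, so that P1 treated samples were lower than P4 treated (-2.63) and P1 untreated (-2.48, limma adjusted p = 0.0489) samples, while the untreated ages overlapped (-0.45, not called). In the untreated samples alone the plakophilin *Pkp3* was called lower at P1 (-0.41).

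**Figure D4:**
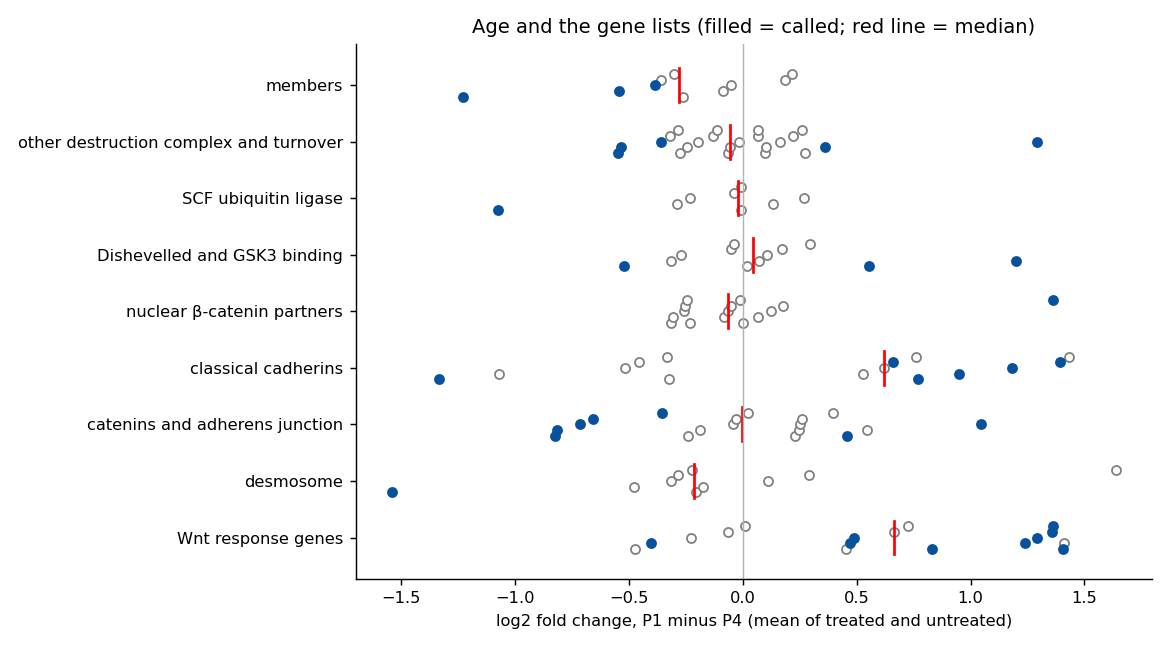
Log2 fold change between P1 and P4, averaged over treated and untreated samples, of every tested gene in the 10 described genes (members) and in 8 lists of related genes; filled points are called genes and the red line is the median of a list. The medians are -0.28 for the 10 genes, 0.62 for the classical cadherins and 0.66 for the Wnt response genes.

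Among genes that respond to Wnt signaling, all that were called for treatment were higher in treated samples. Of 17, 5 were called higher in treated samples in the average of both ages, where 0.674% of all genes were called in either direction. None was called lower and 12 were not called, with 8 positive differences and a list median of -0.14. At P1 alone 4 were called higher, where 0.353% of all genes were called. At P4 alone none was called, where 0.0543% of all genes were, although 6 had positive and 2 had negative differences with unadjusted p under 0.05. The list was chosen with earlier results of these data known, and the paper already names *Lgr5*, *Znrf3*, *Tnfrsf19*, *Edar* and *Cd44* as altered. These counts are therefore not an independent test of the response. *Lgr5*, a receptor for R-spondins, rose with the smallest adjusted p of the list, from 2494 ± 393 to 9011 ± 279 normalized counts (SD, n = 3 each) at P1 and from 3267 ± 602 (n = 3) to 6829 ± 675 (n = 2) at P4, a log2 difference of 1.47 ± 0.107 SE (limma adjusted p = 2.66e-04). *Cd44* (1.00), *Tnfrsf19* (0.67) and *Znrf3*, a ubiquitin ligase that removes Wnt receptors (0.49), also rose, as did *Sp5*, a transcription factor (1.30). The 3 with negative differences at an unadjusted p under 0.05 were *Notum*, an enzyme that inactivates Wnt proteins (-2.27), the transcription factor *Lef1* (-1.12) and *Wif1*, a secreted Wnt inhibitor (-1.09), and their limma adjusted p ran from 0.11 to 0.256. By age, 8 of the 17 were higher and 1 was lower at P1, with a median of 0.66. Those with the smallest adjusted p were *Axin2*, *Sp5* (1.41), *Tnfrsf19* (0.47) and *Tcf7* (1.24).

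The genes whose profiles across the 11 libraries were closest to those of β-catenin, plakoglobin and E-cadherin were found by the root mean square difference of centred log2 values. For *Ctnnb1* they were *Ric8b* (0.0616), *Tecpr1* (0.0623) and *Tbc1d2* (0.0692), set against a standard deviation of 0.197 for *Ctnnb1* itself. For *Jup*, with a standard deviation of 0.321, they were *F2r* (0.0612), *Txlng* (0.0755) and *Rnf19b* (0.0906). For *Cdh1*, with 0.224, they were *Ocln* (0.0683), which encodes the tight junction protein occludin, *Erlin2* (0.0703) and *Cpd* (0.0734). These are descriptions of 11 libraries, picked from 18400 genes, and carry no test.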

How the data were processed

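RNA from single pups was made into cDNA with a SMARTer kit and sequenced as single-end reads. Per the labels' processing notes and the methods, reads were mapped by the authors to the mm10 assembly (STAR 2.5.2b), checked with FastQC and featureCounts, and quantified with Sailfish, whose transcript counts tximport collapsed to genes for DESeq2. The deposited table holds 1 normalized count per gene and library, which the authors scaled between libraries and rounded to whole numbers before it was deposited, so it is treated as a score and not as raw counts. Whether it holds the Sailfish or the featureCounts values is not stated for the table itself. The methods give read totals as a range over all samples, but the table does not hold reads, so no counting interval is given. The table has 11 of the 12 described samples, and 1 duplicate entry was left out.

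Values were taken as log2(normalized count + 1), which understates changes of low genes. Genes with a mean of at least 10 (18400) were fitted in limma 3.58.1 (R 4.3.3) with 4 group means, 1 shared spread and eBayes with trend, in 7 comparisons, with Benjamini-Hochberg adjustment over all genes tested. Intervals are 95%. Within-library ratios were compared by exact two-sided permutation tests (numpy 2.4.6). Scripts were tested on simulated data. Each pup was a separate sample, so p-values measure the spread between pups. The methods name littermates without Cre as the controls, but not which libraries shared a litter or how many litters there were. Treated and untreated pups were therefore not paired by litter, and the spread between litters was not measured. Coordinates and lengths are from GENCODE annotation on GRCm38, with the longest transcript among those with nearly the longest coding sequence.

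The 10 genes and all gene lists were chosen with earlier results of these data known. Named were the 10 genes, up to 4 called genes with the smallest adjusted p per list in each averaged comparison, *Axin2*, *Fbxw11*, *Cdh2*, *Ctnna1*, *Sox2* and the 3 closest profiles to 3 genes. *Siah2*, *Cdh15*, *Cdh22*, *Ctnnd1*, *Cul1*, *Pkp3*, *Notum*, *Lef1* and *Wif1* fell outside that rule and were named after their values were seen. Same-numbered P1 and P4 untreated samples deviated together (correlations of 0.115 to 0.136 in all 3 pairs). Across all 15 same-numbered pairs the correlation ran from -0.0796 to 0.136, and across 30 pairs with different numbers from -0.111 to 0.156. The main fits did not pair samples by number, and the replicate block was used as an alternative only.

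Alternatives were rescaling by the median of ratios, a pseudocount of 10, no filter, a minimum mean of 50, eBayes without trend, fits of the compared groups only, an adjusted p under 0.1, *Xist* as a covariate, the replicate block and leaving out each library.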

Additional observations from a re-analysis of the deposited data

How the results depend on the processing

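Over the 10 genes and the ratios, called results kept their call in 196 alternatives, lost it in 25 and reversed in 0. Results that were not called stayed so in 991, passed the thresholds in 13 and changed sign in 39. The count of members called between P1 treated and P4 treated samples was 1 with eBayes without trend. It was 0 with *Xist* as a covariate, which separates these groups completely, and ran from 0 to 3 when a library was left out. For the average of both treatments it ran from 3 to 5, with 5 without P4 untreated replicate 1. The cause was not tested. With the replicate block, *Btrc* between treated samples of both ages was at -0.46 and not called, *Apc2* for averaged treatment was at -0.0576, and no other call of the 10 genes changed. A pseudocount of 10 gave *Apc2* -9.541e-05 there. With *Xist* as a covariate, P1 treated minus P1 untreated was 0.0101 for *Gsk3b*, 0.0726 for *Csnk1a1* and 0.0248 for *Btrc*, P4 treated minus P4 untreated was -0.0807 for *Csnk1a1*, P1 treated minus P4 treated was 0.00327 for *Gsk3a*, 0.0228 for *Csnk1a1* and -0.0596 for *Cdh1*, and averaged treatment was -0.00402 for *Csnk1a1*. Rescaling by the median of ratios led to *Ctnnb1* being called between untreated samples of both ages (-0.32). Leaving out 1 library moved treatment at P1 from -0.163 to 0.0178 for *Jup*, -0.153 to 0.176 for *Apc2*, -0.0821 to 0.176 for *Axin1*, -0.0482 to 0.000748 for *Gsk3b*, -0.0475 to 0.0428 for *Csnk1a1* and -0.100 to 0.00758 for *Btrc*. At P4 it ran from -0.176 to 0.00895 for *Jup*, -0.209 to 0.183 for *Apc2*, -0.107 to 0.281 for *Axin1* and -0.0805 to 0.179 for *Gsk3b*, and *Gsk3a* between treated samples of both ages ran from -0.0610 to 0.0316. Averaged treatment ran from -0.0980 to 0.0981 for *Apc2*, -0.0295 to 0.164 for *Axin1*, -0.0481 to 0.0819 for *Gsk3b*, -0.00481 to 0.0403 for *Csnk1a1* and -0.0111 to 0.0860 for *Btrc*. Fits of the compared groups only do not exist for the averaged comparisons. Each group had 2 or 3 pups, and the table holds no reads from which a counting error could be set.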
